A study of Mus musculus with 10 samples.

Results

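Interleukin-6 family cytokines and their receptors were examined in osteoblastic lineage cells (OBCs), a sorted bone fraction that holds bone-forming cells and their precursors. The 10 genes were chosen by symbol: the ligands Il6, Il11, Lif and Osm, the receptor chains Il6st, Il6ra, Osmr and Lifr, the transcription factor gene Stat3 and its feedback inhibitor gene Socs3. All 10 were measured, among 19938 genes in all. Each gene was read from the probe set (a group of array probes for 1 transcript) with the highest mean over the 10 arrays among probe sets with exactly 1 symbol.

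The arrays came from 5 control mice and 5 BA mice, 1 mouse per array, all labelled C57BL/6. BA mice carry Scl-tTA::TRE-BCR/ABL, in which the Scl promoter drives a doxycycline-repressible transactivator that switches on the BCR/ABL oncogene. Scl is a gene of blood-forming cells, so the transgene is directed to those cells. The labels describe the other mice as controls and give no genotype for them. Both groups were taken off doxycycline at 5 weeks of age and sampled 5 to 6 weeks later, when BA mice had a myeloproliferative neoplasm. RNA from 500 to 2300 sorted cells per sample was amplified before hybridisation. The comparison of BA with control OBCs asked how these genes differ in bone cells of diseased mice. In such bulk samples, fewer cells of a type and less RNA per cell cannot be told apart.

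The 4 ligands examined here signal through gp130, the protein of Il6st. Interleukin-6 and interleukin-11 first bind their own alpha chains, which then bring gp130 molecules together, while LIF and oncostatin M pair gp130 with the LIF receptor or the oncostatin M receptor. JAK kinases bound to the receptor tails then phosphorylate STAT3, which enters the nucleus and switches on target genes, among them Socs3, whose product binds gp130 and dampens the signal. In bone, osteoblasts and stromal cells both make and answer these cytokines, which are known to influence osteoclast formation through RANKL and to affect osteoblast differentiation.

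Promoter windows of 250 bases before the transcription start (RefSeq, GRCm38.p6) were searched on both strands for TTCNNNGAA, a form of STAT site, TGANTCA, the AP-1 site, and a form of NF-kB site made of 3 G, any 2 bases, 3 T and 2 C. These 3 motifs do not overlap in the windows of the members. The table held 11 windows for 9 of the 10 genes, Osm having none. The Il6 and Lif windows are shown whole because these ligand genes had the largest differences between the groups, and the stretches of Il11 and Socs3 because they hold the other matches. Matches are in capitals, and each sequence runs 5′ to 3′ towards the gene.
Il6, chr5:30012864-30013113, plus strand, AP-1 then NF-kB match: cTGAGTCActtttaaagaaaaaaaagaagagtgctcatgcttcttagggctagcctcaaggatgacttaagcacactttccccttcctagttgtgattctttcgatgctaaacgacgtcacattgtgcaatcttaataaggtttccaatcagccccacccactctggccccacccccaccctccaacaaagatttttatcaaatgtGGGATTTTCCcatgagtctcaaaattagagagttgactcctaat
Lif, chr11:4257318-4257567, plus strand, AP-1 match: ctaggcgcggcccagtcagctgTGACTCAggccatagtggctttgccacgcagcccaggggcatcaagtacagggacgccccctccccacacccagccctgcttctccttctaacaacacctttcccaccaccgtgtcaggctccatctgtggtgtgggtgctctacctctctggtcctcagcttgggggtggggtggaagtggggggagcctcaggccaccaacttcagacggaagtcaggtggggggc
Il11, chr7:4778223-4778249, minus strand, AP-1 match: ggagggagggTGAGTCAggatgtgtca
Socs3, chr11:117969502-117969530, minus strand, STAT match: gaaaccagccTTCTTAGAAgggagggggg

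In these windows the AP-1 match lay 249 to 243 bases before the start in Il6, 228 to 222 in Lif and 98 to 92 in Il11. The NF-kB match of Il6 lay 44 to 35 bases before its start, and the STAT match of Socs3 154 to 146 bases before its own. So 3 of the 9 genes held an AP-1 match, 1 a STAT match and 1 an NF-kB match. Counted by window, as in the shares that follow, these were 3, 1 and 1 of 11 windows, and the second Il11 window held no match. Over all 32851 windows of this length in the table, 6.75% held the AP-1 motif, 7.02% the STAT motif and 1.41% the NF-kB motif. A match is a run of letters and was not tested as a binding site.

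The samples carried skeletal transcripts on every array, and a pair of arrays stood apart in ways that touch the ligand genes. Ibsp, the bone sialoprotein gene, lay between 12.59 and 12.85 on the log2 scale over all 10 arrays, and the cartilage regulator gene Sox9 between 11.07 and 11.52, so cartilage as well as bone transcripts were present. Of 9 osteoblast markers measured, 6 had a lower mean in BA cells and 3 a higher one, and 12350 of all 19938 genes had a lower mean. At an unadjusted limma p under 0.05, 4 of the 9 had lower means and 0 higher, against 5.27% and 4.13% of all genes. These were Col1a1 (-1.25), Col1a2 (-1.16), Phex (-1.12) and Dmp1 (-0.42), and none had an adjusted p under 0.05. For Col1a2 every BA array lay below every control array. The mean over the list was 8.71 to 9.58 on control and 8.29 to 9.10 on BA arrays. Runx2, Bglap and Spp1, also listed, had no probe set with exactly 1 symbol. BA replicate 5 was the highest array for most of the listed genes that blood cells share (pan-haematopoietic markers). It was not the highest for Vav1 (5.08) or Was (6.03). Ptprc, the gene of the leukocyte antigen CD45 that the sort stained for, was at 9.29 there and at 5.54 to 5.90 on the other 9 arrays. BA replicate 4 was low for Saa3, an inflammation-induced serum amyloid gene, at 4.80 against 11.88 to 12.27 on the other BA arrays.

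Of the 10 genes, Il6 and Lif had the largest differences, both with higher means in BA cells, while the shared receptor chain Il6st, the alpha chain gene Il6ra, Lifr and Socs3 had nearly equal means in the groups. Il6 averaged 3.49-fold higher in BA cells (95% interval 1.07 to 11.4) and Lif 2.58-fold higher (95% interval 1.15 to 5.83), with n = 5 mice per group. Neither passed the threshold, an adjusted p under 0.05 over all genes in limma, and none of the 10 genes did, against 0.00502% of all genes (a single gene). The arrays of the groups overlapped for all 10 genes, while they were fully apart for 1.67% of all genes. At an unadjusted limma p under 0.05, 2 of the 10 genes had higher means in BA cells and 0 lower, against 4.13% and 5.27% of all genes. The BA mean was above the control mean for 8 of the 10 genes, against 37.7% of all genes, and the median difference was 0.32 on the log2 scale, against -0.06 over all genes. That median was 0.19 without BA replicate 5 or BA replicate 2, 0.17 without control replicate 3, 0.39 without BA replicate 4 and 0.14 with a covariate for pan-haematopoietic markers. By role, the median difference was 0.93 for the 4 ligand genes, 0.00 for the 4 receptor genes and 0.15 for Stat3 and Socs3.

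**Figure D1:**
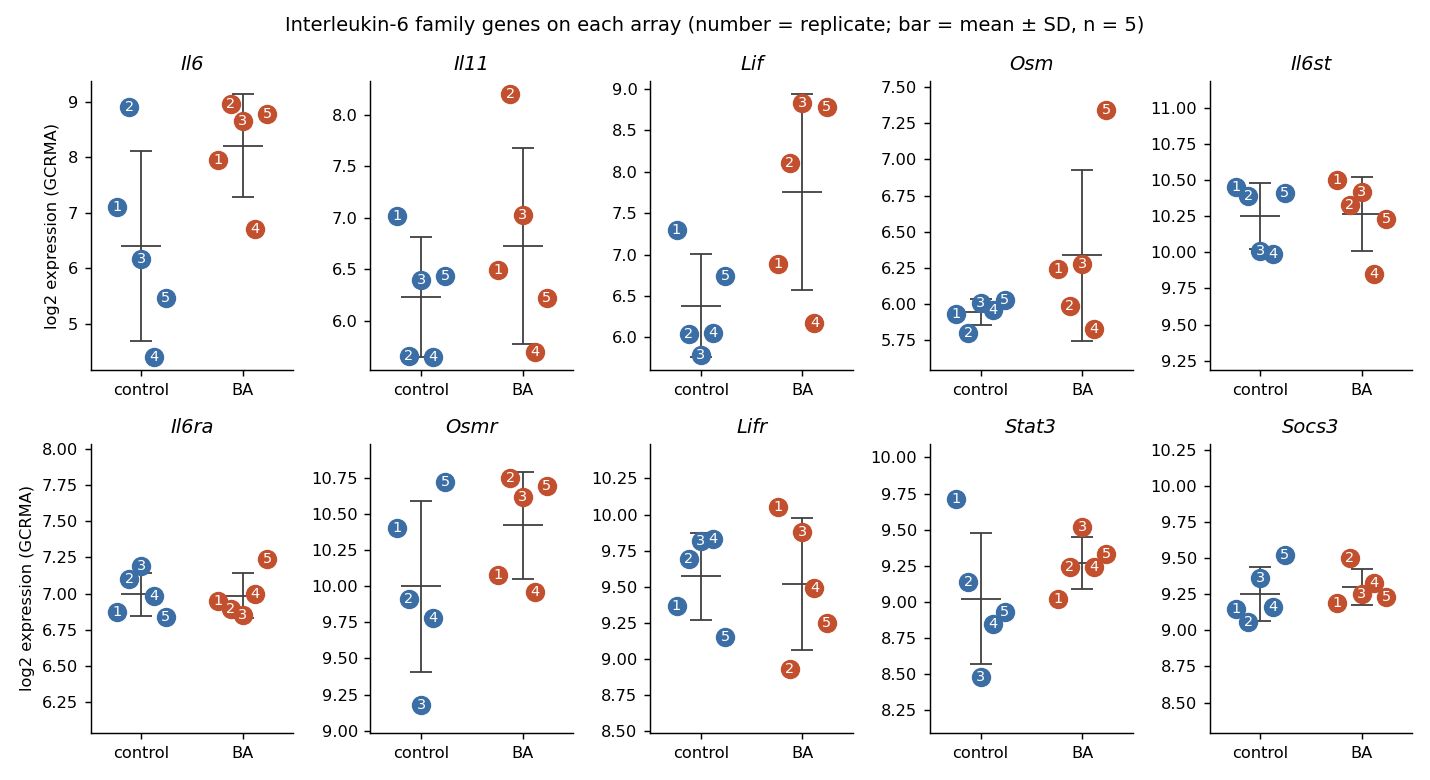
Log2 expression of the 10 interleukin-6 family genes on each array, control arrays in blue and BA arrays in red, with the replicate number in each point and the mean ± SD (n = 5 mice per group) as a bar. The vertical axes differ between panels. For Il6 and Lif most BA points lie high while BA replicate 4 lies among the controls, as does BA replicate 1 for Lif. Osm is highest on BA replicate 5, with BA replicates 1 and 3 just above the controls. Il6st, Il6ra and Socs3 span under 1 log2 unit over all arrays.

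Il6 encodes interleukin-6, the cytokine that gives the family its name and a main inducer of acute-phase proteins. Its log2 expression was 7.11, 8.91, 6.16, 4.40 and 5.46 on control arrays 1 to 5 and 7.96, 8.97, 8.65, 6.70 and 8.78 on BA arrays 1 to 5. Apart from BA replicate 4, BA arrays thus lay between 7.96 and 8.97, control replicate 2 lay as high as they did, and BA replicate 4 lay between control replicates 1 and 3. The means were 6.41 ± 1.71 and 8.21 ± 0.93 (SD, n = 5 each), a difference of 1.80 ± 0.77 (SE). This difference did not pass (adjusted p = 0.509, limma), and the two-sided exact permutation test over the arrays gave p = 0.0873. Il6 had the widest range of the 10 genes, 4.57 log2 units over all arrays and 4.51 among the controls alone. Without BA replicate 4 the difference was 2.18, without control replicate 2 it was 2.43, and without control replicate 4, the lowest array, it was 1.30.

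Lif encodes leukaemia inhibitory factor, a cytokine made by stromal and bone cells. It was at 7.30, 6.04, 5.79, 6.05 and 6.74 on control arrays 1 to 5 and at 6.89, 8.10, 8.83, 6.17 and 8.78 on BA arrays 1 to 5. On 3 BA arrays (replicates 2, 3 and 5) Lif was above every control array, and on BA replicates 1 and 4 it lay within the control range. The group means were 6.38 ± 0.62 and 7.75 ± 1.18 (SD, n = 5 each), a difference of 1.37 ± 0.53 (SE; adjusted p = 0.502, limma; exact permutation p = 0.0635, two-sided). The difference was 1.77 without BA replicate 4 and 1.11 without BA replicate 5.

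Il11, the gene of interleukin-11, a gp130 cytokine made by osteoblasts and other stromal cells, was at 7.02, 5.66, 6.40, 5.65 and 6.44 in control cells and at 6.49, 8.20, 7.03, 5.70 and 6.22 in BA cells. BA replicate 2 was the highest array for Il11, BA replicate 3 lay level with control replicate 1, and the other BA arrays were inside the control range. The difference was 0.49 ± 0.44 (SE; adjusted p = 0.676, limma; 95% interval -0.49 to 1.48). Without BA replicate 2 it was 0.13, and without BA replicate 4 it was 0.75.

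Osm encodes oncostatin M, which is known as a product of blood cells, macrophages and neutrophils among them, that acts on stromal cells. It lay in a narrow span in controls, at 5.93, 5.80, 6.01, 5.96 and 6.03, and at 6.24, 5.99, 6.28, 5.83 and 7.34 on BA arrays 1 to 5. BA replicate 5 stood clear of all other arrays, BA replicates 1 and 3 lay just above the highest control array, and BA replicates 2 and 4 were inside the control range. The difference of 0.39 ± 0.24 (SE) did not pass (adjusted p = 0.584, limma), and it was 0.14 without BA replicate 5. That array also had the highest mean over the 10 pan-haematopoietic markers, 8.96, against 5.99 to 7.16 on control arrays and 6.55 to 7.13 on the other BA arrays. Of these 10 markers 8 had a higher mean in BA cells and none passed the threshold. All 12 neutrophil markers and 8 of 10 macrophage markers also had higher means in BA cells. Their list means spanned 6.36 to 8.27 in control and 7.22 to 9.78 in BA cells for neutrophils, and 5.81 to 6.06 and 5.79 to 7.21 for macrophages. When the average of the pan-haematopoietic markers entered the model as a covariate, the difference was 0.07 for Osm, 1.25 for Il6, 1.06 for Lif and 0.74 for Il11. Which cells in the sorted fraction carried the Osm signal was not tested.

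**Figure D2:**
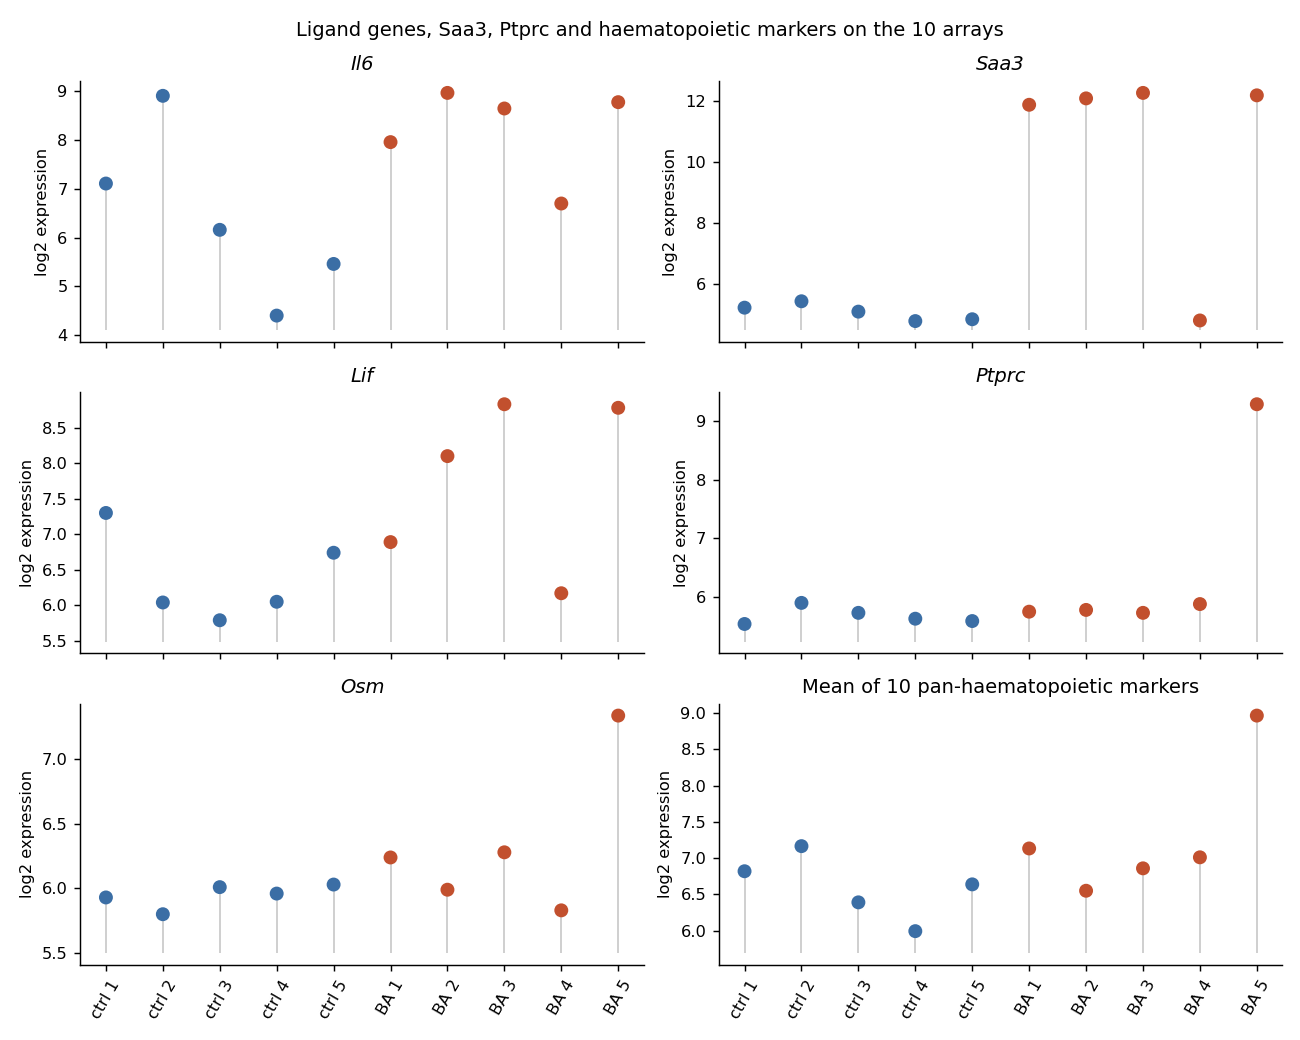
Log2 expression on each array (control in blue, BA in red) of Il6, Lif and Osm in the left column and of Saa3, Ptprc and the mean of 10 pan-haematopoietic markers in the right column. Osm, Ptprc and the marker mean share their highest array, BA replicate 5 (7.34, 9.29 and 8.96). Il6, Lif, Osm and Saa3 all have their lowest BA value on BA replicate 4 (6.70, 6.17, 5.83 and 4.80).

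The receptor genes differed less between the groups than their arrays differed within a group. Il6st, the gene of the shared signalling chain gp130, was at 10.45, 10.39, 10.01, 9.99 and 10.41 on control arrays and at 10.50, 10.33, 10.42, 9.85 and 10.23 on BA arrays. It averaged 10.25 ± 0.23 and 10.27 ± 0.25 (SD, n = 5 each), a difference of 0.02 with a 95% interval of -0.32 to 0.35 (adjusted p = 0.973, limma). For Il6ra, the gene of the interleukin-6 binding chain, the means were 7.00 ± 0.15 and 6.99 ± 0.15, a difference of -0.01 with an interval of -0.25 to 0.23. All 10 arrays lay between 6.84 and 7.24 for Il6ra. The upper ends of these intervals correspond to a 1.28-fold higher mean for Il6st and a 1.17-fold higher mean for Il6ra.

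Lifr, the gene of the LIF receptor chain, was at 9.37, 9.69, 9.82, 9.83 and 9.15 in control cells and at 10.05, 8.93, 9.88, 9.49 and 9.25 in BA cells. BA arrays were both the highest and the lowest for Lifr, and the difference was -0.05 (95% interval -0.55 to 0.45, limma). Osmr, whose product pairs with gp130 to bind oncostatin M, was at 10.40, 9.91, 9.18, 9.78 and 10.72 in control cells and at 10.08, 10.75, 10.62, 9.96 and 10.69 in BA cells. All 5 BA arrays were above the control median of 9.91 for Osmr, with control replicates 1 and 5 among them. Its difference, 0.42 ± 0.28 (SE), was the largest of the 4 receptor genes and did not pass (adjusted p = 0.594, limma; 95% interval -0.21 to 1.05). Without control replicate 3, the lowest array, it was 0.22.

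Stat3, which encodes the main transcription factor of the pathway, was at 9.71, 9.14, 8.48, 8.85 and 8.93 in control cells and at 9.02, 9.24, 9.52, 9.24 and 9.33 in BA cells. The BA arrays spanned 0.50 log2 units against 1.23 for the controls, and all of them lay above the control median of 8.93 and below control replicate 1. The difference was 0.25 ± 0.20 (SE; adjusted p = 0.651, limma), 0.11 without control replicate 3 and 0.42 without control replicate 1. Socs3, the feedback inhibitor gene that STAT3 is known to switch on, was at 9.15, 9.06, 9.36, 9.16 and 9.52 in control cells and at 9.19, 9.50, 9.25, 9.33 and 9.23 in BA cells. It differed by 0.05 (95% interval -0.20 to 0.30; adjusted p = 0.870, limma), with all BA arrays inside the control range. A second Socs3 probe set, the sole case of more than 1 probe set among the 10 genes, averaged 6.93 ± 0.51 and 7.07 ± 0.71 (SD, n = 5 each), a difference of 0.14. On the arrays with the highest Il6 (8.65 to 8.97), Socs3 was at 9.06 on control replicate 2 and at 9.50, 9.25 and 9.23 on BA replicates 2, 3 and 5, so it did not follow Il6 from array to array.

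**Figure D3:**
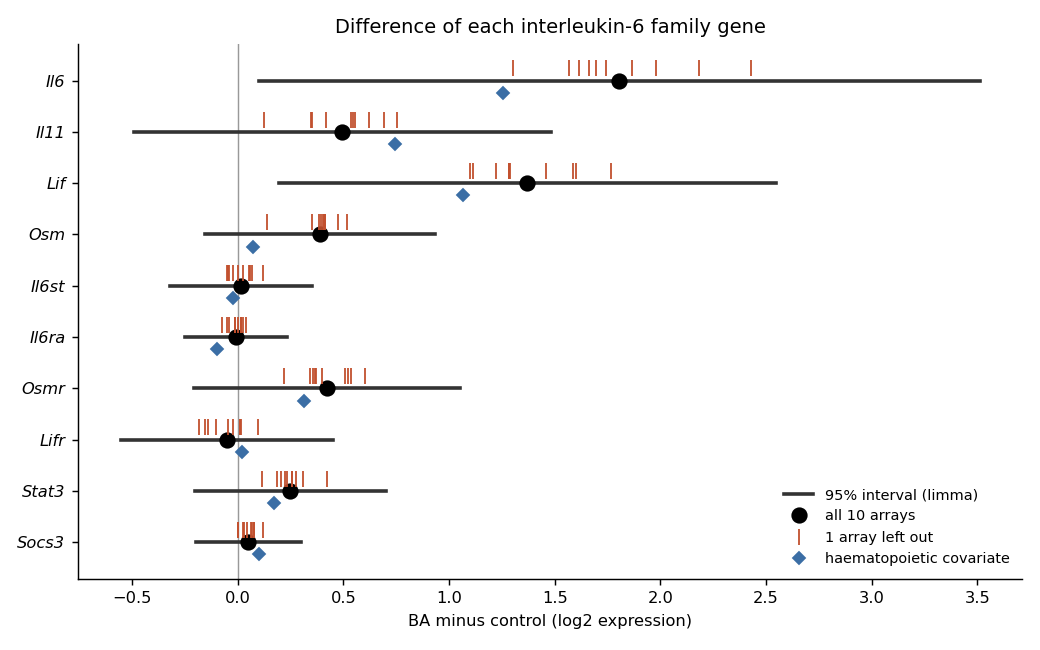
Difference in log2 expression, BA minus control, of each interleukin-6 family gene with all 10 arrays (black point), its 95% interval from limma (black line), the 10 values with 1 array left out (red ticks) and the value with pan-haematopoietic markers as a covariate (blue diamond). The intervals of Il6 and Lif lie above 0 before adjustment for the number of genes, and those of the other 8 genes span 0.

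Arrays with high and with low Xist, the RNA that coats the silenced X chromosome of females, were present in both groups. Low Xist (3.85 to 5.08) was found on 3 control and 2 BA arrays and high Xist (9.81 to 10.70) on 2 control and 3 BA arrays. The Il6 difference was 0.91 within the low-Xist arrays and 3.22 within the high-Xist arrays, and the difference between these values did not pass (adjusted p = 0.999 for the interaction, limma). For Lif the values were 1.48 and 1.29, for Osmr 0.52 and 0.22 and for Stat3 0.16 and 0.38. Lifr (0.34 and -0.27), Il6st (0.18 and -0.06) and Il6ra (-0.15 and 0.13) had opposite signs in the 2 sets, and no interaction passed for any of the 10 genes.

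The genes most like Il6 across the 10 arrays were Alkbh5, an RNA demethylase gene (Pearson's r = 0.916), Gsr, the glutathione reductase gene (0.915), Acsl4, a fatty acid activating enzyme gene (0.906), Slc35e2 (0.903) and the Toll-like receptor gene Tlr2 (0.901). They ranked highest of 17061 genes compared, and the values are a description, since the arrays share the difference between the groups. The highest of so many correlations over 10 arrays are also large through the selection itself. After each group's mean was taken off, the 5 correlations were 0.868, 0.872, 0.853, 0.872 and 0.863. They come from the same arrays and the same selected genes, so they are no separate check. Acsl4 had the same high control array as Il6, at 9.11 on control replicate 2 against 5.82 to 7.85 on the other controls. Among the other family members the correlation with Il6 was 0.624 for Lif, 0.531 for Stat3 and 0.502 for Il6st, and -0.160 for Socs3. For Osmr, Il11, Osm, Il6ra and Lifr it was 0.427, 0.425, 0.359, 0.125 and -0.150. After each group's mean was taken off, it was 0.403 for Lif, 0.415 for Stat3, 0.595 for Il6st and -0.331 for Socs3.

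Beyond the 10 genes, 52 listed genes of the same signalling system were measured, and none passed the threshold in either direction (0 higher and 0 lower). At an unadjusted limma p under 0.05, 7 had higher and 2 lower means in BA cells, against 4.13% and 5.27% of all genes. The BA mean was above the control mean for 30 of the 52, against 37.7% of all genes, with a median difference of 0.04. Of the 7, 5 belong to the list of STAT3-responsive genes, which was drawn up with earlier results known. For Cntf, Il11ra1 and Ptprt, which were also listed, there was no probe set with exactly 1 symbol. Among the 6 other ligand genes of the wider family the differences ran from -0.27 to 0.04. The one furthest from 0 was Il31, the gene of an itch-inducing cytokine (-0.27 ± 0.10, SE), and those of Ctf2 and Il27 were -0.08 and -0.04. The 3 other receptor genes measured all had lower means in BA cells, with Cntfr, the CNTF receptor alpha chain gene, at -0.57 ± 0.36, Il31ra at -0.29 ± 0.15 and Il27ra at -0.04 ± 0.11 (SE).

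Of the 8 kinase, adaptor and STAT genes, 5 had higher and 3 lower means in BA cells. Jak2, the gene of a kinase that gp130 and many blood cytokine receptors use, was at 8.87, 9.06, 8.29, 8.40 and 6.46 in control cells and at 9.36, 8.62, 9.58, 9.32 and 9.58 in BA cells. On 4 BA arrays Jak2 was above every control array, and control replicate 5 lay far below the rest. The difference was 1.08 ± 0.44 (SE; adjusted p = 0.507, limma), and 0.64 without control replicate 5. Stat5b differed by -0.54 ± 0.23 and Ptpn11, the gene of the phosphatase SHP2, by 0.37 ± 0.24 (SE).

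Among the 7 negative regulators, Socs2, a SOCS gene best known for restraining growth hormone signalling, had the largest difference. It was at 6.81, 8.17, 6.69, 6.70 and 9.16 in control cells and at 9.04, 8.93, 8.53, 9.19 and 9.39 in BA cells. The BA arrays were all at 8.53 or above, as was control replicate 5. The difference of 1.51 ± 0.46 (SE) did not pass (adjusted p = 0.459, limma; exact permutation p = 0.0317, two-sided). It was 1.92 without control replicate 5, 1.31 without control replicate 3 or 4 and 1.23 with the pan-haematopoietic covariate. Ptpn2 differed by 0.94 ± 0.46 and Socs1 by -0.23 ± 0.15 (SE), so the differences of Socs1 and Socs2 had opposite signs. Socs2 and Ptpn2 each have 2 probe sets, and these values come from the one with the highest mean.

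Of the 28 genes known to respond to STAT3, 20 had higher and 8 lower means in BA cells, with a median difference of 0.18. This list was drawn up with earlier results of these arrays known, Saa3 and Lcn2 among them, so its direction is no independent evidence. The smallest p-values belonged to 3 genes: Saa3 differed by 5.57 ± 1.29, Lcn2, the iron-scavenging lipocalin gene, by 4.43 ± 0.67 and the fibrinogen gene Fgg by 1.20 ± 0.45 (SE). None of these passed with all 10 arrays. Among other acute-phase genes on the list, the difference was 2.01 ± 0.81 for Serpina3n and 1.40 ± 1.08 for the haptoglobin gene Hp (SE). It was 0.01 ± 0.39 for Lbp and -0.07 ± 0.11 for Fgb (SE). Timp1, also listed, differed by 0.93 ± 0.40 (SE). Saa3, Lcn2, Fgg, Serpina3n and Timp1 were the 5 listed genes with an unadjusted limma p under 0.05. Serpina3n and Timp1 did not pass the threshold either (adjusted p = 0.507 and 0.509, limma). Without BA replicate 4, Saa3 (7.04) and Lcn2 (5.00) rose past the threshold (adjusted p = 5.6e-08 and 0.00496, limma), as the only 2 of the 52 genes, where 13 of all 19938 genes passed. Because BA replicate 4 drew attention through its low Saa3 value, its removal could only raise the Saa3 difference. Several other genes that STAT3 is known to switch on were near 0, with -0.05 for Junb, 0.04 for Pim1, 0.00 for Cebpb and -0.14 for Fos. Others on the list were further from 0 in either direction without passing. Irf1 had the lowest difference of the list, -0.95 ± 0.50, while Vegfa differed by 0.58 ± 0.39 and Il4ra by 0.51 ± 0.38 (SE). Tnfsf11, the RANKL gene through which gp130 cytokines are known to act on osteoclasts, differed by 0.04 ± 0.14 (SE).

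**Figure D4:**
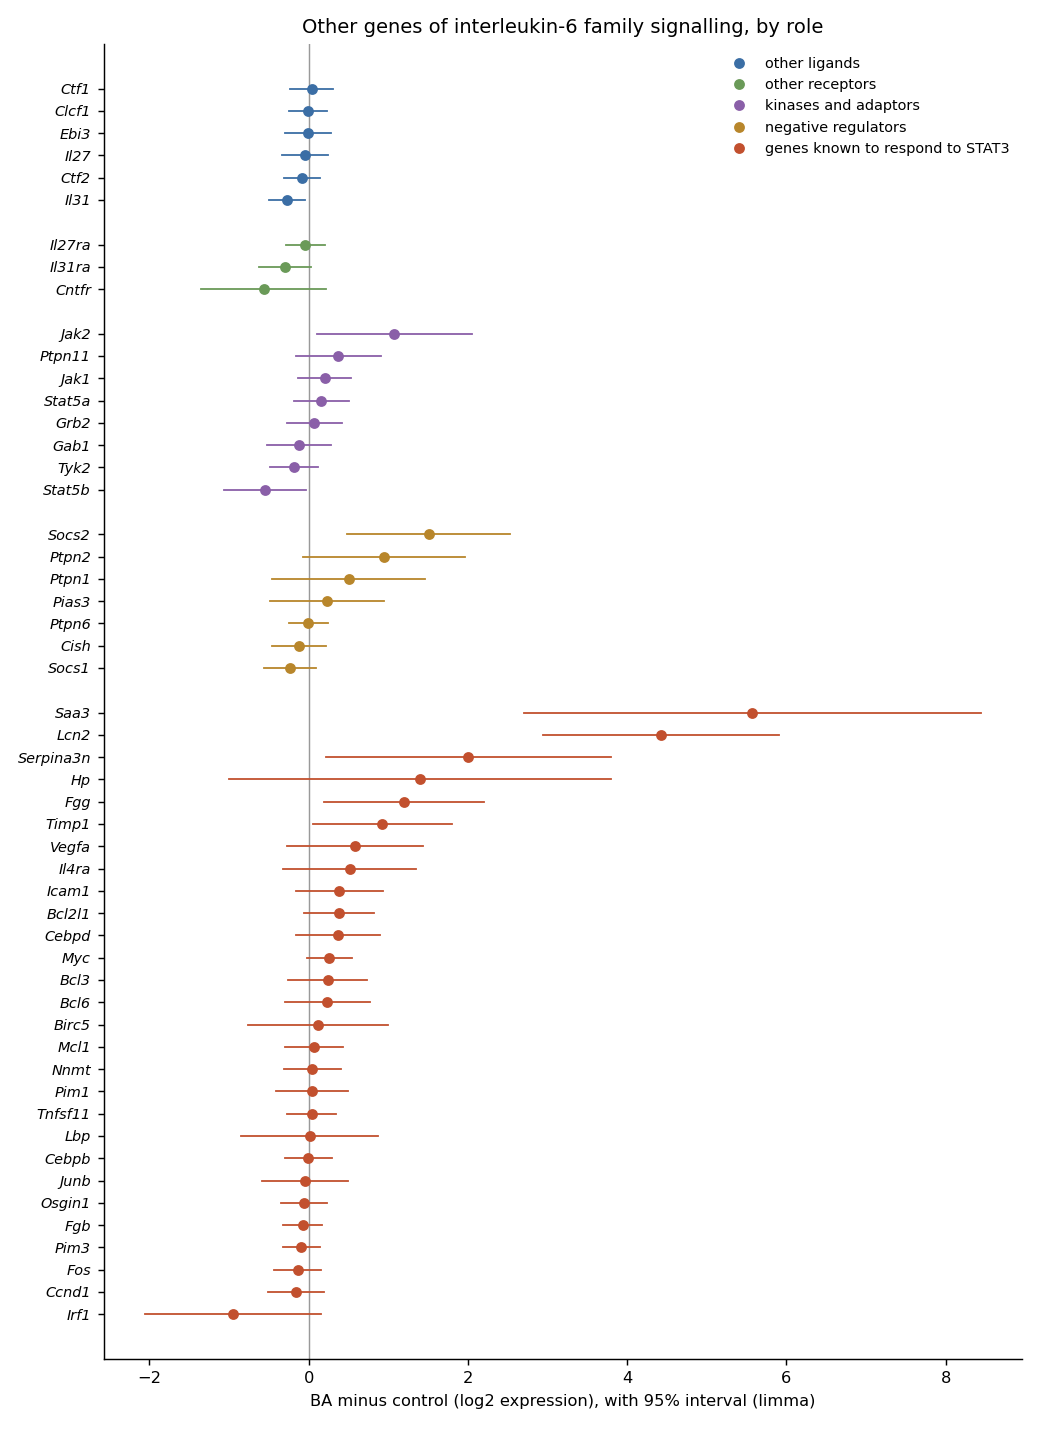
Difference in log2 expression, BA minus control, of the 52 other genes of interleukin-6 family signalling, with 95% intervals from limma, grouped and coloured by role. Saa3 (5.57) and Lcn2 (4.43) lie furthest to the right, Jak2 (1.08) and Socs2 (1.51) lead the kinase and the negative regulator groups, and the other ligand genes all lie between -0.27 and 0.04.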

How the data were processed

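Values were measured on Affymetrix mouse Gene ST 1.0 arrays, 1 per mouse. The deposited values are on a log2 scale, a base taken from their range and not stated. The submitters' processing notes name GCRMA, which corrects background, normalizes and summarises probes; no version is named there. GCRMA compresses differences between dim probe sets, signal over background was not judged, and precision is limited by having 10 arrays. Genes were named from the platform annotation. Limma 3.58.1 (R 4.3.3) compared BA with control arrays by lmFit and eBayes, two-sided and without covariates, with Benjamini-Hochberg adjustment over 19938 genes. Single genes also had an exact permutation test over the 252 ways to assign the 10 arrays (smallest possible p 0.00794). The code was tested on simulated data.

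The 10 genes and all lists were chosen with earlier results of these data known. Of the other pathway genes, the text names the 3 with the smallest p in each list. Junb, Pim1, Cebpb, Fos, Tnfsf11, Lbp, Fgb, Hp, Serpina3n, Timp1, Irf1, Vegfa and Il4ra were added after their values were seen. Alternatives were a replicate block, quantile normalization, median centring, a level filter, array weights, eBayes with trend and robust settings, probe sets averaged per gene, haematopoietic and Xist covariates, a plain equal-variance test and leaving out each array.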

Additional observations from a re-analysis of the deposited data

Results flagged for a closer look

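Among the 50 groups of 5 arrays checked (25 genes in each of 2 groups), 4 values lay far from the others of their group, where chance flags about 1 in 20 groups. Saa3 was at 4.80 on BA replicate 4, against 11.88 for the next lowest BA array. Jak2 was at 8.62 on BA replicate 2, against 9.32. Il27 was at 7.85 on control replicate 5, against 7.38 for the next highest control array. Il31ra was at 5.10 on control replicate 3, against 4.62. None of the 10 family members was among them.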

How the results depend on the processing

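Under 20 alternatives, 10 of them leaving out 1 array each, none of the 10 genes passed the threshold (lowest adjusted p = 0.373, limma, for Lif). Il6, Lif, Il11, Osm, Osmr and Stat3 kept a positive difference in each one run, with ranges of 1.25 to 2.43, 1.06 to 1.77, 0.13 to 0.75, 0.07 to 0.52, 0.22 to 0.60 and 0.11 to 0.42; Osm was not tested among genes above the median level. The differences close to 0 changed sign. Il6st became -0.055 with quantile normalization and -0.023 with the haematopoietic covariate, and ranged from -0.049 to 0.12 with 1 array left out. Socs3 became -0.031 with quantile normalization. Il6ra became 0.024 with median centring and ranged from -0.074 to 0.039 with 1 array left out. Lifr became 0.019 with the haematopoietic and 0.035 with the Xist covariate and ranged from -0.18 to 0.10. The number of all genes past the threshold, 1 with all arrays, was 0 with the replicate block, the level filter, the haematopoietic covariate and the plain test, 2 with the Xist covariate, and 0 to 13 with 1 array left out (13 without BA replicate 4). The number of other pathway genes past it was 0 to 2 with 1 array left out. The cause was not tested. With the replicate block, Il6 had an adjusted p of 0.516 and Lif of 0.574 (limma). The SE of the Il6 difference was 0.47 with the block and 0.77 without it. For Il6ra, Stat3 and Socs3 the SE was larger with the block, and for the other members it was smaller. Same-numbered arrays had correlations of -0.10 to 0.11 in their deviations from group means, and differently numbered arrays of -0.15 to 0.10. Such correlations over few arrays cannot show whether the numbers pair the mice.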
